A study of Mus musculus with 2 samples.

Results

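Macrophage genes were examined in normal mouse colon and in colon adenomas: Arg1, Trem2, Tyrobp, Spp1, Gpnmb, Cd163, Mrc1, Lyz2, Cd68 and Csf1r. These 10 genes were chosen by symbol as markers of tumour-associated and tissue-resident macrophages, out of 35529 genes in the deposited table, and all 10 were found. The control group was C57BL/6 wild-type normal colon without AOM or DSS. The adenoma group was adenoma tissue from the colon of C57BL/6 wild-type mice given AOM and DSS; azoxymethane (AOM) is a carcinogen and dextran sodium sulfate (DSS) injures the mucosa. Each group is 1 library made from total RNA of 6 pooled individuals, called here the control pool and the adenoma pool; ages, doses and times are not given in the sources used here. With 1 library per group no difference has a replicate check, no test between the conditions is possible, and the 95% intervals beside ratios cover counting error only.

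Macrophages of the normal colon are replaced through life mostly by blood monocytes and kept alive by signals through Csf1r, the receptor of Csf1 and Il34. Resident cells that scavenge and clear debris carry the haemoglobin receptor Cd163 and the mannose receptor Mrc1. Macrophages in tumours and injured tissue often express Trem2, a lipid-sensing receptor that signals through the adaptor Tyrobp, together with Spp1 (osteopontin), Gpnmb and arginase 1. Several of these genes are not limited to macrophages: neutrophils also make Lyz2 and Tyrobp and can make Arg1, and epithelial cells can make Spp1. In whole tissue, fewer cells of a type and less RNA per cell cannot be told apart.

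The macrophage genes differed in opposite directions between the pools. Arg1, Spp1, Trem2 and Tyrobp were between 4.85-fold and 129-fold higher in adenoma, Cd163 was 6.97-fold lower, and the general macrophage genes Cd68 and Csf1r differed by less than 2-fold. On the log2 scale of RPKM + 1 (RPKM are reads per length of gene and depth of library, here with a pseudocount of 1, which understates the change of low genes), 4 of the 10 genes were higher by 2-fold or more and 1, Cd163, was lower by that much. Of all 16517 genes that reached 1 RPKM in one pool or both, 14.0% were higher and 11.0% lower by 2-fold or more. The median log2 difference of the 10 genes was 0.80, beside -0.02 for all those genes. All 10 passed the filter of 1 RPKM, but Arg1 and Spp1 passed it only through the adenoma pool and Cd163 only through the control pool, so these 3 had to differ if they passed at all. The same holds for each gene of the lists below that passed through 1 pool only.

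**Figure D1:**
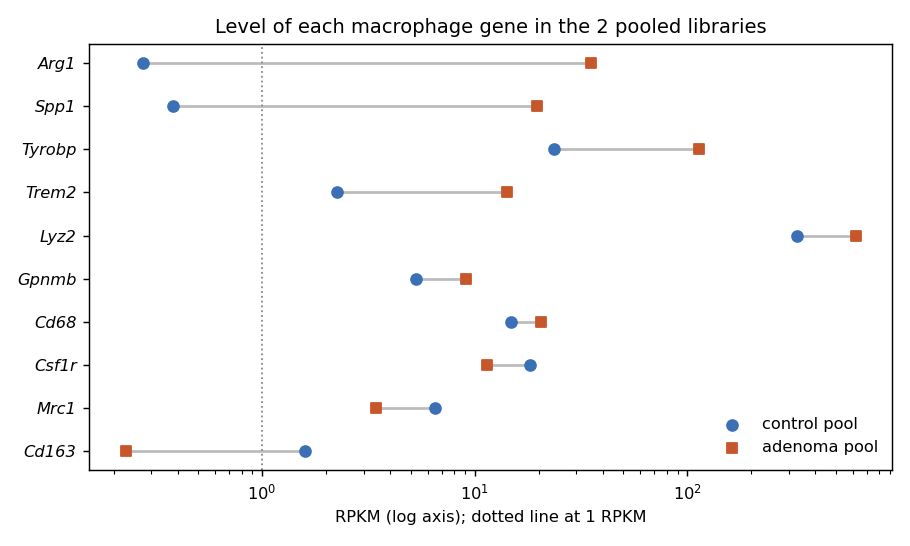
RPKM of each of the 10 macrophage genes (log axis) in normal colon (circles) and the adenoma pool (squares), 1 library each, so there is no error bar. Arg1 and Spp1 lie below 1 RPKM in normal colon and at 35.4 and 19.5 RPKM in adenoma, while Cd163 lies at 1.59 and 0.228 RPKM.

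Arg1, which splits arginine into ornithine and urea, stood at 0.275 RPKM in normal colon and at 35.4 RPKM in adenoma. The adenoma level was 129-fold higher, with a counting interval of 73.4 to 249. The ratio of the 2 values is that of 12 reads to 1733 reads, and these whole numbers match a transcript of 1477 bases, the length of the longest coding Arg1 transcript in GENCODE M21. Of the 7 genes for which such a whole-number pair was found, Arg1 and Cd163 matched their transcript within 10%. For Trem2, Tyrobp, Spp1, Gpnmb and Lyz2 the smallest pair implied another length, longer than the transcript for Spp1 and shorter for the others. A multiple of a pair has the same ratio, so a shorter implied length does not show a mismatch. The pairs leave the reads of these genes unsettled, and their read numbers and counting intervals are approximate. Among the 22388 mRNA genes of the table, Arg1 stood at percentile 36.4 in normal colon and at percentile 90.6 in adenoma. It was the lowest of the 10 genes in normal colon and the third highest in adenoma.

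Spp1, the secreted matrix protein osteopontin, was the other of the 10 genes below 1 RPKM in normal colon. Its level was 0.379 RPKM in normal colon, about 17 reads, and 19.5 RPKM in adenoma, about 976 reads, by the length of its transcript; the smallest whole-number pair for its ratio, 102 and 5897 reads, would need a length of 9102 bases. The ratio was 51.5, with an interval of 31.8 to 88.1 from the transcript length. Spp1 stood at percentile 38.2 of mRNA genes in normal colon and at percentile 85.0 in adenoma. It was the ninth of the 10 genes in normal colon and the fifth in adenoma.

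Trem2, the lipid-sensing surface receptor, and Tyrobp, its signalling adaptor, were both higher in adenoma. Trem2 went from 2.24 RPKM in normal colon to 14.2 RPKM in adenoma, 6.33-fold higher, with an interval of 4.94 to 8.22. Tyrobp was already abundant in normal colon, at 23.5 RPKM, and reached 114 RPKM in adenoma, 4.85-fold higher, with an interval of 4.37 to 5.41. The intervals of the receptor and its adaptor overlapped. Tyrobp also pairs with receptors of neutrophils and natural killer cells.

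Gpnmb, a membrane glycoprotein of phagocytic and lipid-loaded cells, differed much less than Trem2 and Spp1. It was at 5.29 RPKM in normal colon and 9.14 RPKM in adenoma, 1.73-fold higher, with an interval of 1.56 to 1.91. Its log2 difference of 0.69 did not reach 2-fold.

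The scavenger receptors were lower in adenoma. Cd163, which takes up haemoglobin bound to haptoglobin, was at 1.59 RPKM in normal colon and 0.228 RPKM in adenoma, 6.97-fold lower, with an interval of 4.79 to 10.2. The ratio of these values is that of 211 reads to 34 reads. Mrc1, the mannose receptor, was at 6.48 RPKM in normal colon and 3.43 RPKM in adenoma, 1.89-fold lower, with an interval of 1.71 to 2.09. The intervals of the 2 receptors did not overlap, so that Cd163 was reduced further than Mrc1 by more than counting error. Cd163 stood at percentile 48.9 of mRNA genes in normal colon and 35.5 in adenoma.

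The genes shared by most macrophages differed little. Cd68, a lysosomal membrane glycoprotein, was at 14.7 RPKM in normal colon and 20.4 RPKM in adenoma, 1.39-fold higher, with an interval of 1.24 to 1.55. Csf1r, the growth factor receptor on which macrophages depend, was at 18.1 RPKM in normal colon and 11.4 RPKM in adenoma, 1.59-fold lower, with an interval of 1.49 to 1.69. As deposited, the pair differed in opposite directions, each by more than counting error and less than 2-fold. After adjustment for transcript length both were lower, at -0.27 for Cd68 and -0.25 for Csf1r on the log2 scale, and with the pools at equal sums Cd68 was at 0.07. Set against Cd68 within each pool, the Arg1 level was 0.0187 of it in normal colon and 1.73 times it in adenoma. Spp1 went from 0.0257 of the Cd68 level to 0.956, Trem2 from 0.152 to 0.694 and Mrc1 from 0.440 to 0.168. Gpnmb was at 0.359 of the Cd68 level in normal colon and 0.448 in adenoma. Set against Csf1r instead, Mrc1 went from 0.358 to 0.3002 and Gpnmb from 0.292 to 0.800, so for these genes the size of the shift depends on the reference. The transcripts of Cd68 and Csf1r are 1230 and 4701 bases long, and these ratios are not adjusted for length. Arg1 went from 0.0152 to 3.10 of the Csf1r level, Spp1 from 0.0209 to 1.71 and Trem2 from 0.124 to 1.24.

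Lyz2, the lysozyme of macrophages and neutrophils, was the most abundant of the 10 genes in both pools. It was at 328 RPKM in normal colon and 621 RPKM in adenoma, 1.89-fold higher, with an interval of 1.85 to 1.93. Lyz1, its neighbour and the lysozyme of Paneth cells, was at 37.8 and 337 RPKM, so Lyz2 exceeded it 8.69-fold in normal colon and 1.84-fold in adenoma. The GENCODE M21 transcripts of the pair are identical at 1211 of 1317 aligned positions. Of the 1267 windows of 50 bases in the Lyz2 transcript, 195 (15.4%) also occur in Lyz1. How reads of these windows were assigned is not given in the sources used here, so the split between Lyz1 and Lyz2 is uncertain.

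The bases before the start sites of the lysozyme pair also show how alike the genes are: 200 of 252 aligned positions (79.4%) are identical. They are printed with the promoters of Spp1 and Trem2, higher in adenoma, and of Cd163 and Mrc1, lower in adenoma, because these genes lie at the ends of the range. Each run holds the 250 bases before the RefSeq start site on build GRCm38.p6, 5′ to 3′ on the gene's strand. Promoters were taken by symbol and used for 7 of the 10 genes, and none was used for Arg1, Tyrobp or Csf1r. Capitals mark matches, on either strand, to 4 motifs of factors known in macrophages. The motifs were GAGGAAGT for PU.1, found in 2.44% of all 32851 RefSeq promoters of this length, TGANTCA for AP-1 (6.75%), TGTGGT for RUNX factors (14.0%) and TTGCNNAA for C/EBP (9.56%). No 2 matches in the printed runs overlap, and the coordinates are those of RefSeq and not of the authors' alignment.
Spp1, chr5:104434861-104435110, plus strand: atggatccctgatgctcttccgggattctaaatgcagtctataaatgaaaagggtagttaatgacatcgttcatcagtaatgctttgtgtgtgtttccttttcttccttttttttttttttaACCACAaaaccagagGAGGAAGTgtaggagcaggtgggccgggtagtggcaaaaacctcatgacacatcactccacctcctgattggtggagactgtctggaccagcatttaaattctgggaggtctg
Trem2, chr17:48346151-48346400, plus strand: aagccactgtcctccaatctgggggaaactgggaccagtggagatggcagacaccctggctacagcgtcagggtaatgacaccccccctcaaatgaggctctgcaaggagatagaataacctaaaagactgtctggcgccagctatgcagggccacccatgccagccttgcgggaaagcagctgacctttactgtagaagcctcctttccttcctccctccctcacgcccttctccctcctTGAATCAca
Cd163, chr6:124304401-124304650, plus strand: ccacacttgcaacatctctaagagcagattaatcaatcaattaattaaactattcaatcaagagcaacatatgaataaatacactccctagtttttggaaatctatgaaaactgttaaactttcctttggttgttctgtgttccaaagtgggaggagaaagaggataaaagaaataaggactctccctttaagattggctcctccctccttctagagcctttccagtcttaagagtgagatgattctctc
Mrc1, chr2:14229164-14229413, plus strand: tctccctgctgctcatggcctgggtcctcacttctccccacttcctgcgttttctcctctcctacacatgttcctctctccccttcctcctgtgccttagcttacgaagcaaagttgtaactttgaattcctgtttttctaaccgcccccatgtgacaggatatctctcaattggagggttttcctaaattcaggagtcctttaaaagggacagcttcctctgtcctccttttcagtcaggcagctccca
Lyz2, chr10:117282273-117282522, minus strand: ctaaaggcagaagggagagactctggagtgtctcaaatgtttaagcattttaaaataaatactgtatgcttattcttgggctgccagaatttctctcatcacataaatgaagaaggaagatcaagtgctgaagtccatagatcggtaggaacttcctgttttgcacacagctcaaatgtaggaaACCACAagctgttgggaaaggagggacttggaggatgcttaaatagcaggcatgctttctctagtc
Lyz1, chr10:117292869-117293118, minus strand: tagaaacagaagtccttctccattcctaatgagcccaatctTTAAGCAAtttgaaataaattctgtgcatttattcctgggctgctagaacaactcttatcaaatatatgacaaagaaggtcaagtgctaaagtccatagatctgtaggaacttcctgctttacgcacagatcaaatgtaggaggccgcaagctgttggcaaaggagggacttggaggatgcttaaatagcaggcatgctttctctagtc

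Of the 7 promoters searched, the Spp1 promoter alone held the PU.1 letters, from 113 to 106 bases before its start site, with a RUNX match from 128 to 123 bases before it. A RUNX match was also present in the Gpnmb and Lyz2 promoters, so 3 of 7 held one. The AP-1 letters were found in Trem2, from 9 to 3 bases before the start site, and at 2 places in Cd68. The C/EBP letters were found in Cd68 and, outside the 10 genes, in Lyz1. The promoters of Cd163 and Mrc1 held none of the 4 motifs in these 250 bases. These matches describe the letters only.

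Transcript length moved with the differences across the whole table. Over 20 bins of transcript length, the median log2 difference of mRNA genes went from 0.87 in transcripts up to 654 bases to -0.79 in those over 7797 bases. The 3 genes that were lower in adenoma, Csf1r, Cd163 and Mrc1, have the longest coding transcripts of the 10, at 4701, 4443 and 5374 bases. Gpnmb comes next, at 3701 bases, and the other 6 range from 597 bases (Tyrobp) to 1507 bases (Spp1). Each gene is therefore set beside mRNA genes of like length, on the scale of the plain log2 ratio and over genes above 0 in both pools.

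**Figure D2:**
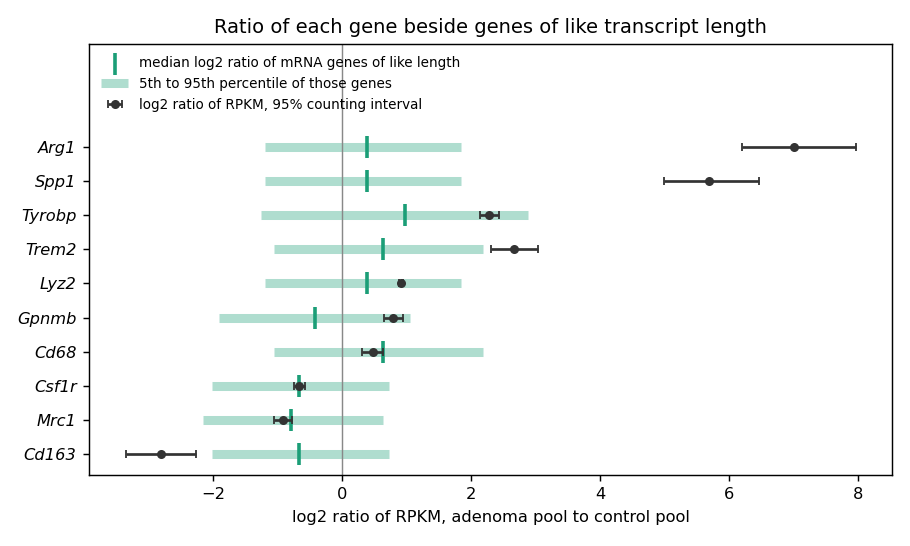
Log2 ratio of RPKM of each gene (points, with 95% counting intervals), adenoma pool to control pool, beside the median (ticks) and the 5th to 95th percentile (bands) of mRNA genes of like transcript length. Arg1, Spp1 and Trem2 lie above their bands, Cd163 lies below its band, and the other 6 lie within them.

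Against genes of like length, Arg1, Spp1 and Trem2 stood above the 95th percentile. The log2 ratio was 7.01 for Arg1 and 5.69 for Spp1, where the 5th to 95th percentile ran from -1.20 to 1.85. For Trem2 it was 2.66, where the range ran from -1.05 to 2.19. Tyrobp, at 2.28, lay inside the wide range of the shortest transcripts, -1.25 to 2.88, whose median was 0.98.

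Cd163 stood below its range. Its log2 ratio was -2.80, where genes of like length ran from -2.02 to 0.72 with a median of -0.67. Csf1r, in the same bin, was at -0.66 and so lay at that median. Mrc1 was at -0.92, beside a median of -0.79, and Cd68 at 0.47, beside a median of 0.64. The differences of Csf1r, Mrc1 and Cd68 were thus close to those of other genes of their length. Gpnmb was at 0.79 where the median was -0.43 and the 95th percentile 1.05, and Lyz2 at 0.92 where the median was 0.38.

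With the median of each length bin subtracted and the mRNA median of -0.17 added back, 4 of the 10 genes passed 2-fold upward and 0 downward, where 5.07% and 11.1% of 15459 genes with a length were. The adjusted log2 differences were 4.30 for Arg1, 3.36 for Spp1, 1.51 for Trem2 and 1.19 for Tyrobp. Cd163 moved to -0.70 on this scale, where the pseudocount compresses it; with a pseudocount of 0.1 the adjusted value was -1.92. Cd68 changed sign, from 0.44 to -0.27. Whether transcript length and the differences share a technical origin was not tested.

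**Figure D3:**
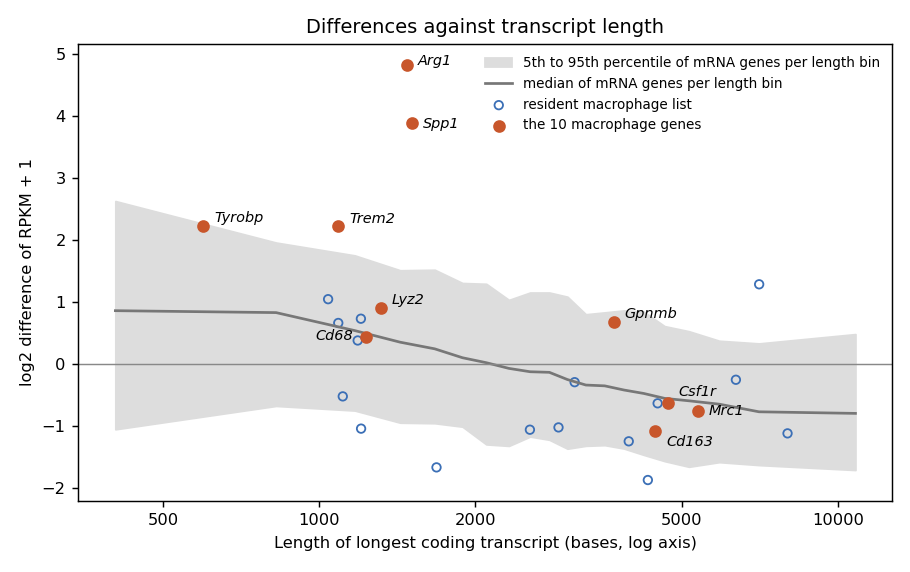
Log2 difference of RPKM + 1 (vertical axis) against the length of the longest coding transcript in bases (log axis) for the 10 macrophage genes (filled) and the resident macrophage list (open), over the median (line) and 5th to 95th percentile (band) of mRNA genes in 20 length bins. Csf1r, Mrc1 and Cd68 lie near the line, while Arg1 and Spp1 lie far above the band at 4.83 and 3.90.

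Scaling also moved the lower group. The adenoma RPKM summed to 828667 and the control RPKM to 629215. With the adenoma pool rescaled to the control sum, the median of all genes shifted from -0.02 to -0.34, and of the genes past 2-fold 27.7% were higher, against 56.1% as deposited and 31.4% after length adjustment. On that scale 1208 of all 16517 genes were higher and 3158 lower by 2-fold or more. Mrc1, at -1.05, then also passed 2-fold downward, Csf1r was at -0.98 and Cd68 at 0.07. The median of the 10 genes was then 0.43, and the same 4 genes, Arg1, Spp1, Trem2 and Tyrobp, were at least 2-fold higher.

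Other genes of the same cells and pathways were read from lists written with earlier results of these data known. Genes found in most macrophages and monocytes differed little. Of 19, 3 were higher by 2-fold or more and 0 lower, beside 14.0% and 11.0% of all genes. Their median was 0.27, and -0.0831 with the pools at equal sums. Those 3 were Aif1 (8.78 against 28.1 RPKM), Lst1 (5.13 against 15.5) and the Fc receptor Fcgr4 (4.60 against 10.6), all short transcripts, and after length adjustment 0 were. The F4/80 gene Emr1, now called Adgre1, was at 7.49 RPKM in normal colon and 5.19 in adenoma. The integrin Itgam (CD11b) was at 4.69 and 2.53 RPKM, the leukocyte gene Ptprc (CD45) at 5.95 and 3.70, and Sfpi1, which encodes PU.1, at 7.55 and 9.32. Ctss, a lysosomal protease and the most abundant of the list, was at 257 and 206 RPKM.

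Several genes of resident macrophages were lower in adenoma, where Cd163 was too. Of 20 genes measured, 16 passed the filter. By the 2-fold rule 7 of these were lower and 2 higher, beside 11.0% and 14.0% of all genes. The median was -0.57. After length adjustment 6 were lower and 1 higher, beside 11.1% and 5.07% of all genes, with a median of -0.42. The count of lower genes was 4 with the pools scaled by the upper quartile and 2 with a pseudocount of 5 RPKM, and that of higher genes was 0 at equal sums. Of all 16517 genes, 1636 were lower with the upper quartile and 1208 higher at equal sums. The median ran from -1.04 with a filter of 5 RPKM to -0.27 without a filter. Mertk, a receptor for dying cells, was at 7.12 RPKM in normal colon and 1.23 in adenoma, 5.79-fold lower (4.91 to 6.82). The prostaglandin-degrading enzyme Hpgd, which epithelium also makes, was at 58.1 and 17.7 RPKM. The complement gene C1qb was at 112 and 179 RPKM, a log2 difference of 0.67 that was -0.05 after length adjustment. C1qa, 1 of the 2 higher genes, was at 80.8 and 169 RPKM, a log2 difference of 1.05 that was 0.04 after length adjustment. The other was the growth factor Igf1, made also by fibroblasts, at 1.37 and 4.80 RPKM. The part of other cell types in the values of this list was not tested.

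Genes of recruited monocytes split by the 2-fold rule into 2 higher and 1 lower of 9, beside 14.0% and 11.0% of all genes. Their median was 0.61, which was -0.06 after length adjustment, where 1 was higher and 0 lower. Ifitm3, an interferon-induced gene that many cell types express, was at 128 RPKM in normal colon and 925 in adenoma, and S100a4 at 39.4 and 92.9; after length adjustment Ifitm3 stayed above 2-fold, at 1.84, and S100a4 was at 0.18. Thbs1 (thrombospondin 1) was at 20.5 and 8.71 RPKM, and Plac8, the most abundant, at 719 and 1135. Their log2 differences of -1.14 and 0.66 were -0.68 and -0.06 after length adjustment. The monocyte-attracting chemokines Ccl2 (5.48 against 19.7 RPKM) and Ccl12 (2.02 against 6.58) were higher in adenoma as deposited, but their log2 differences of 1.68 and 1.33 were 0.67 and 0.29 after length adjustment, under 2-fold.

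The ligands of Csf1r did not follow one direction. Csf1 was at 9.16 RPKM in normal colon and 3.05 in adenoma, with a ratio interval of 2.68-fold to 3.36-fold lower, while Il34 was at 6.24 and 6.86. In the list of colony-stimulating factors, their receptors and monocyte chemokines, 3 of 8 were higher by 2-fold or more and 1 lower. The shares of all genes were 14.0% and 11.0%. The counts were 0 and 1 after length adjustment and 1 and 1 at equal sums. At equal sums 1208 of all 16517 genes were higher and 3158 lower by 2-fold or more. The median was 0.03, and -0.28 at equal sums.

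Around Trem2 and Tyrobp, 11 of 19 signalling genes passed the filter. Of these 1 passed 2-fold upward and 1 downward, beside 14.0% and 11.0% of all genes, around a median of -0.04. After length adjustment 0 passed in either direction. Genes below the filter in both pools went both ways. Trem1 (0.0788 against 0.862 RPKM), Trem3 (0.102 against 0.819) and Clec5a (0.142 against 0.923) were higher in adenoma. Treml2 (0.555 against 0.341) and Cd300lb (0.752 against 0.293) were lower. The control values of Trem1 and Trem3 rest on about 7 and 3 reads. Sirpb1a, a receptor that pairs with Tyrobp, was at 0.243 RPKM in normal colon and 2.28 in adenoma; it has close paralogs and its reads are uncertain. Hcst, the adaptor DAP10, was at 1.68 and 3.96 RPKM. Syk, the kinase recruited by Tyrobp, was at 19.8 and 8.29 RPKM, 2.38-fold lower (2.24 to 2.54), with a length-adjusted log2 difference of -0.75. The adaptor and its kinase went in opposite directions in whole tissue, where epithelium and B cells also express Syk. Each log2 ratio lay within the 5th to 95th percentile of mRNA genes of like length. It was -1.25 for Syk (range -2.16 to 0.64) and 2.28 for Tyrobp (range -1.25 to 2.88).

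Trem2, Spp1 and Gpnmb are often found in the company of genes of lipid-laden and phagocytic macrophages. Of 20 such genes 3 passed 2-fold upward and 0 downward, beside 14.0% and 11.0% of all genes. Their median of 0.29 was -0.0503 at equal sums and -7.49e-05 after length adjustment. Fabp5, a fatty acid carrier, was at 7.20 RPKM in normal colon and 29.0 in adenoma. The lysosomal gene Lamp2 was at 28.9 and 106 RPKM, 3.66-fold higher (3.52 to 3.81), and apolipoprotein Apoe at 346 and 716. After length adjustment Lamp2 was at 2.01 on the log2 scale, Fabp5 at 0.86 and Apoe at 0.51. Lgals3 (galectin 3), the most abundant and strongly expressed in colon epithelium, was at 1278 and 1074 RPKM.

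Arg1 is a classic gene of alternative activation, but the other genes of that state were mixed. Of 10 past the filter 2 passed 2-fold upward and 1 downward, beside 14.0% and 11.0% of all genes. Their median of 0.18 was -0.0865 at equal sums and -0.14 after length adjustment. The chemokines Ccl17 (0.658 against 9.32 RPKM) and Ccl22 (1.08 against 3.41) were higher in adenoma, at 1.60 and 0.97 on the log2 scale after length adjustment, and Retnla, which encodes a secreted resistin-like protein, was at 7.07 and 2.32 RPKM, 3.05-fold lower (2.16 to 4.38). The transcription factor Stat6 was at 28.8 and 19.9 RPKM. Il4 and Il13, the cytokines that drive this state, were at 0.0559 and 0.349 RPKM and at 0 and 0.0250 RPKM, below the filter in both pools.

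Genes of classical activation passed 2-fold upward in 3 of 10 cases and downward in 0, beside 14.0% and 11.0% of all genes. Their median was 0.66. After length adjustment 4 were higher, beside 5.07% of all genes, and the median was 0.67. The 3 higher as deposited were Il1b (3.90 against 21.4 RPKM), Tnf (0.962 against 7.09) and Il6 (0.187 against 1.9). Nos2, whose product competes with arginase for arginine, was at 1.53 and 3.37 RPKM. Genes of both activation lists were among those higher beside Arg1. Of these, Tnf, Il6 and Ccl17 passed the filter only through the adenoma pool, as Arg1 did, so the filter fixed their direction. Il1b and Ccl22 were above 1 RPKM in both pools.

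Of 12 other arginine and polyamine genes 0 passed 2-fold upward and 1 downward, around a median of -0.05, beside 14.0% and 11.0% of all genes. The downward count was 5 at equal sums, where 3158 of all 16517 genes were lower by 2-fold or more. The second arginase, Arg2, was at 0.836 RPKM in normal colon and 2.53 in adenoma. Ornithine decarboxylase, Odc1, was at 31.1 and 36.2 RPKM, Oat, which turns ornithine towards proline, at 91.0 and 58.4, and Otc, a urea cycle enzyme, at 5.27 and 1.5. The neuronal nitric oxide synthase Nos1 was at 1.43 and 0.220 RPKM.

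Of 10 osteopontin receptor genes past the filter 0 passed 2-fold upward and 3 downward, around a median of -0.53, beside 14.0% and 11.0% of all genes. After length adjustment 1 was lower, Itga5 (21.8 against 6.94 RPKM, fibronectin receptor). Cd44 was at 6.17 RPKM in normal colon and 6.00 in adenoma, Itgb1, the most abundant, at 49.3 and 42.0, Itga4 at 2.15 and 0.393, and Itgb3 at 2.84 and 0.918.

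Haptoglobin, which Cd163 takes up in complex with haemoglobin, went the other way from Cd163. Its gene, Hp, was at 0.805 RPKM in normal colon and 35.6 RPKM in adenoma, 44.2-fold higher (31.2 to 64.9). Among 12 genes of haemoglobin and iron handling 2 passed 2-fold upward and 2 downward, beside 14.0% and 11.0% of all genes. Their median of 0.43 was -0.02 after length adjustment. Blvrb, a biliverdin reductase, was at 40.0 and 183 RPKM, ferritin heavy chain Fth1 at 1408 and 2811, and Lrp1, the receptor of haem bound to haemopexin, at 17.1 and 3.42. Of 6 relatives of Mrc1 and Lyz2 past the filter, 1 passed 2-fold upward, Lyz1, and 1 downward, Ly75, beside the same shares of all genes. Their median was -0.43. After length adjustment Ly75 was at -0.84 and no longer passed. Among them Mrc2 was at 2.98 and 1.59 RPKM and Ly75 at 4.15 and 0.915.

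**Figure D4:**
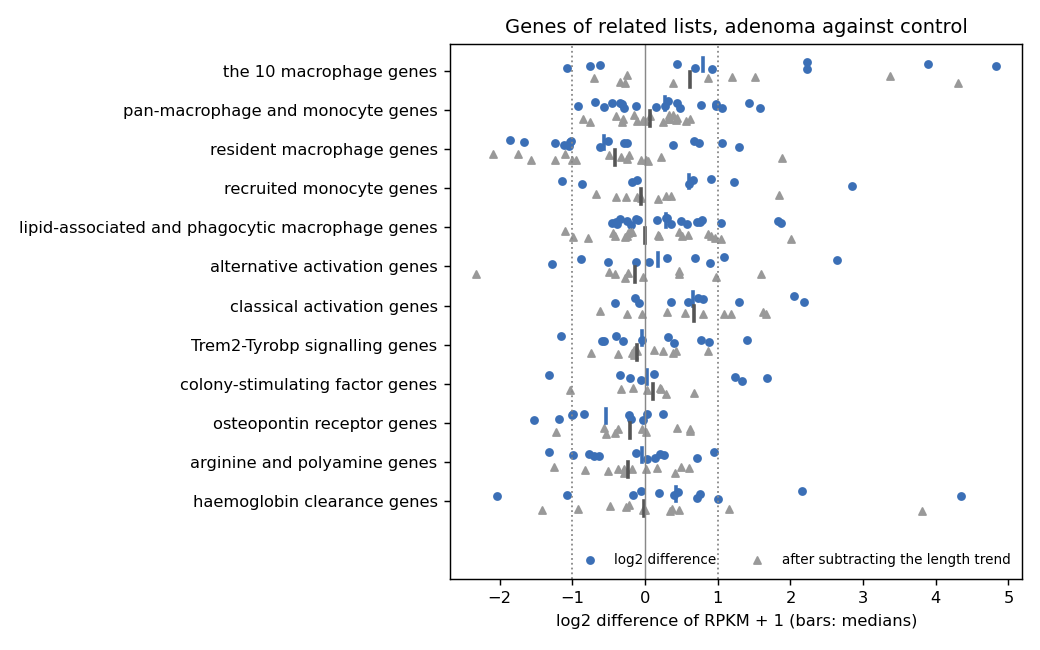
Log2 difference of RPKM + 1 for each gene past the filter in 12 lists (circles) and after subtraction of the length trend (triangles), with medians as bars and dotted lines at 2-fold. The resident macrophage list has a median of -0.57, while the 10 macrophage genes range from -1.08 to 4.83.

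Markers of other cell types also differed between the pools. Counts of them stand beside the 14.0% of all genes that were higher and the 11.0% that were lower by 2-fold or more. Epithelial and smooth muscle markers were present in both, as the tissue label gives, with summed levels of 9626 and 6288 RPKM and of 2160 and 1784 RPKM. The 12 neutrophil markers summed to 3.07 RPKM in normal colon, where 4 were at 0, and to 312 RPKM in adenoma, where none was. S100a8, at 120 RPKM, and S100a9, at 175 RPKM, made up most of the adenoma sum. Of the 12, 5 passed the filter and 4 of these were at least 2-fold higher. All 5 were below 1 RPKM in normal colon and passed only through the adenoma pool, so the filter fixed their direction. Cxcr2 (0.0389 against 0.0307 RPKM) and Camp (0.169 against 0.151) were no higher in adenoma. The level of the neutrophil markers lies beside the higher Arg1, Tyrobp and Lyz2 values, and their part in those was not tested. The 7 Paneth cell markers summed to 226 and 1352 RPKM, beside Lyz2, and their part was not tested either. Of the 7, 6 were at least 2-fold higher and 1, Ang4, was lower, at 174 and 59.9 RPKM. Ang4 made up most of the sum in normal colon. Among the higher ones, Defa24, Mmp7 and Reg3g passed the filter only through the adenoma pool. Fibroblast markers had 0 of 9 genes past 2-fold and a median log2 difference of -0.22, although their sum went from 450 to 514 RPKM, with Dcn at 145 and 250 RPKM. Dendritic cell markers summed to 8.65 and 13.1 RPKM over 9 genes, beside the chemokine genes above. Mast cell markers summed to 8.36 RPKM in normal colon and 104 RPKM in adenoma, with 5 of 6 past the filter at least 2-fold higher. Among these, Cpa3, Mcpt4 and Tpsb2 (0.349, 0.137 and 0.0933 RPKM in normal colon) passed only through the adenoma pool. Markers of T and natural killer cells summed to 15.7 and 35.6 RPKM, and those of B and plasma cells to 724 and 1338 RPKM. Endothelial markers, at 42.5 and 30.3 RPKM, and glial markers, at 5.39 and 3.38 RPKM, had lower sums in adenoma. The part of these cells in the values of the 10 genes was not tested.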

How the data were processed

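The authors deposited 1 table of RPKM values per the file headers, with 1 column per pool, a symbol and a type for each of 35529 genes. The series text names a Proton sequencer and the library protocol Illumina. The submitters' processing notes name build GRCh37, although the symbols are those of mouse; aligner, counting and gene lengths are not given in the sources used here. Read totals of 29548883 (control) and 33174626 (adenoma) were recovered from short microRNA and small nucleolar RNA genes of RefSeq length, where 129 of 182 and 144 of 200 values came out within 0.01 of a whole read; the totals' ratio, 1.12, was the most frequent ratio among low genes (301 genes). Reads per gene are RPKM times the longest coding GENCODE M21 transcript, found for 93.6% of 16517 genes past the filter, and are approximate where the authors' lengths differ, as are the Clopper-Pearson 95% intervals (SciPy 1.17.1) of the ratios. The 3-read level was 0.0612 to 0.0687 RPKM for Arg1. Differences are log2((adenoma + 1)/(control + 1)) for genes reaching 1 RPKM in one pool or both, called at 2-fold. Single libraries allow no test. The members and lists were chosen with earlier results of these data known. Named from each of 12 related lists were the 3 members with the largest absolute difference and the most abundant. Direct partners of the 10 genes and the general markers Emr1, Itgam, Ptprc and Sfpi1 were named whatever their values. Odc1, Il4, Il13, Trem1, Trem3, Clec5a, Treml2, Cd300lb and C1qa fall outside this rule and were chosen after their values were seen. 5 list symbols were matched through RefSeq synonyms. Alternatives covered pseudocount, filter, scaling, threshold, gene type and transcript length. The steps were tested on simulated data.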

Additional observations from a re-analysis of the deposited data

How the results depend on the processing

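The count of 4 genes at least 2-fold higher stayed at 4 under 12 of the 13 settings tried, all with Arg1, Spp1, Trem2 and Tyrobp, and was 6 at a 1.5-fold threshold. The count of genes at least 2-fold lower, 1, rested on Cd163 and was 0 with a pseudocount of 5 RPKM, with a filter of 5 RPKM, at a 4-fold threshold and with the length trend subtracted, 2 with the pools rescaled to equal sums, and 3 at 1.5-fold. The median of the 10 genes, 0.80, was 0.43 at equal sums. 9 of the 10 genes kept their direction under the 11 settings that leave the threshold in place, of which Cd163 had a value under all but the filter of 5 RPKM; Cd68 was at -0.27 with the length trend subtracted and at -0.37 when a pseudocount of 0.1 RPKM, chosen after seeing the data, was used with it. Among the other lists, medians changed sign at equal sums for pan-macrophage genes (-0.0831), lipid-associated genes (-0.0503), alternative activation (-0.0865) and colony-stimulating factors (-0.28). With the length trend subtracted they changed sign for recruited monocytes (-0.0620, and -0.0194 with a pseudocount of 0.1), lipid-associated genes (-7.49e-05 and -0.0115), alternative activation (-0.14), haemoglobin clearance (-0.0153 and -0.0683) and T and NK cell markers (-0.00201), and for fibroblast markers with both changes (0.0714). Without the filter the medians were 0.0641 for Trem2-Tyrobp signalling and 0.0261 for arginine genes, and with the filter at 5 RPKM 0.0261 for arginine genes, -0.23 for alternative activation and 3.12 for relatives of Mrc1 and Lyz2. The cause of these changes was not tested. No paired analysis was possible because each group has 1 library. Counting error limits Arg1 (12 control reads), Spp1 (about 17) and Cd163 (34 adenoma reads).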
